A study of Mus musculus with 12 samples.

Results

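Cells sorted from mouse skin as the GL fraction were compared with cells sorted as SL LRCs, on 4 of the 12 arrays of the study. The members are the arrays whose titles name the GL fraction (2 arrays, GL 1 and GL 2) and those whose titles name SL LRCs (2 arrays, SL LRC 1 and SL LRC 2). The labels do not spell out BL, SL and GL, which are read here, from what is known of this work, as basal, spinous and granular layer, and LRC as label-retaining cell, a cell that has diluted a histone label little and so has divided seldom. The GL fraction is not divided by label retention in the titles. Where the step from BL LRC (3 arrays) to SL LRC is given beside a result, it comes from the same fit over the 12 arrays.

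Both groups came from mice with the same 4 transgenes and the same treatment, so neither is an untreated control of the other. K5-tTA places a tetracycline transactivator under the keratin 5 promoter, pTRE-H2B-GFP is the histone label that it switches on, K14-CreER is a Cre recombinase that tamoxifen activates, and Rosa-tdTomato is the reporter that Cre turns on. The keratin 5 and keratin 14 promoters are active in basal keratinocytes of the epidermis and in the outer root sheath of hair follicles. Doxycycline in the food (1 g/kg) for 2 weeks stopped new H2B-GFP synthesis. Tamoxifen was injected at 75 mg/kg in 1 dose, and tissue was taken 1 week after that, in the second telogen (the resting phase of the hair cycle). The age of the mice, the sorting gates and the origin of the replicates (separate animals or not) are not in the labels, and for that reason each p-value reflects no more than how far these samples differ among themselves.

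The epidermis renews itself from a basal layer that is anchored to the basement membrane by integrins and collagen XVII. Cells that leave this layer become spinous cells, which make keratins 1 and 10. They then become granular cells, which make loricrin and filaggrin, cross-link a cornified envelope with transglutaminases, secrete lipids for the permeability barrier and release kallikrein proteases that later cut the corneodesmosomes. Hair follicles and sebaceous glands are continuous with this sheet, and Langerhans cells, resident T cells and melanocytes lie within it.

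Each of the 4 arrays had the high signal of the hybridisation control BioB (2884.9 to 3490.4 intensity units), as opposed to 466.8 to 524.4 units on the 4 arrays of the low BioB set, which include both SL non-LRC arrays. Between 68.9% and 78.4% of 18193 genes lay above array background, taken as the 95th percentile of 27 bacterial probe sets (22.4 to 42.6 units). Over these genes on the log2 scale, GL 1 and GL 2 correlated at r = 0.925 and SL LRC 1 and SL LRC 2 at r = 0.927, whereas GL and SL LRC arrays correlated at 0.873 to 0.899. The GL arrays correlated at 0.891 to 0.915 with the SL non-LRC arrays. These correlations are across genes, which are not independent replicates. The 3' minus 5' difference of the Gapdh probe sets, which grows as RNA degrades, was 1.22 on GL 1, 0.68 on GL 2, 0.80 on SL LRC 1 and 0.85 on SL LRC 2. For Actb it was -0.07 and -0.05 in GL and -0.19 on both SL LRC arrays. The part of RNA quality in the results was not tested.

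Relative to SL LRC, 971 genes were higher in GL and 734 lower, 5.34% and 4.03% of the 18193 genes tested (limma, Benjamini-Hochberg adjusted p under 0.05), and 57.0% of the calls were higher. Each count of list members called in GL against SL LRC below is to be read beside these shares of all genes. When every array was centred on its median, the median difference of all genes moved from -0.04 to -0.27 and 37.3% of the calls were higher (776 against 1302). The median log2 intensity was 7.70 and 7.60 on the GL arrays and 7.42 and 7.43 on the SL LRC arrays. Among called genes above background on all 4 arrays, 658 were higher with a median difference of 1.79 log2 units and 683 lower with a median of -1.27. Another 133 higher and 17 lower genes had 1 of the 2 arrays of the dimmer group above background. For 173 higher and 27 lower genes the dimmer group alone gave no array above background and the bound exceeded 1, so the change is given below as a lower bound ("at least"). For a further 6 higher and 1 lower the bound was under 1, and 1 higher and 6 lower were below background in both groups. These have no fold. Leaving out GL 1 reduced the 1705 calls to 858, leaving out SL LRC 1 to 861, SL LRC 2 to 1077 and GL 2 to 1201. In each such fit, 334 of the higher and 227 of the lower calls remained. Where a gene's values are given below, a call that was lost when an array was left out is followed by the arrays that ended it and the highest adjusted p. All other calls named held in each of the 4 such fits. A call is said to be lost against both SL groups where GL was set against the mean of the SL LRC and SL non-LRC groups, and lost with averaged probe sets where all probe sets of a gene were averaged. Errors are moderated standard errors in log2 units, with n = 2 arrays per group, and intensities are given for replicate 1 and then replicate 2.

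The label of the GL fraction was set against markers of the 3 layers, with a mixed outcome. The summed intensity of 8 granular markers was 29778 and 17756 on the GL arrays, above the 11096 and 11846 of the SL LRC arrays. The 6 spinous markers summed to 101345 and 105311 in GL, below the 137929 and 127503 of SL LRC, and the 7 basal markers to 81880.5 and 85977 in GL, below the 114848 and 101877 of SL LRC. Of the granular markers, Klk5, Klk7 and Cdsn were higher, Tgm3 was lower, and Lor, Flg, Hrnr and Casp14 did not pass the test. Of the spinous markers, Krt1 and Krt10 were lower and Dsc1 higher, while Dsg1a (-0.61 ± 0.20, adjusted p = 0.0734), Sbsn and Krtdap did not pass. Of the basal markers, Krt15, Itga6, Itgb4 and Col17a1 were lower, Krt14 was higher, and Krt5 and Trp63 did not pass. The fraction is therefore called GL here, as its title has it.

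**Figure D1:**
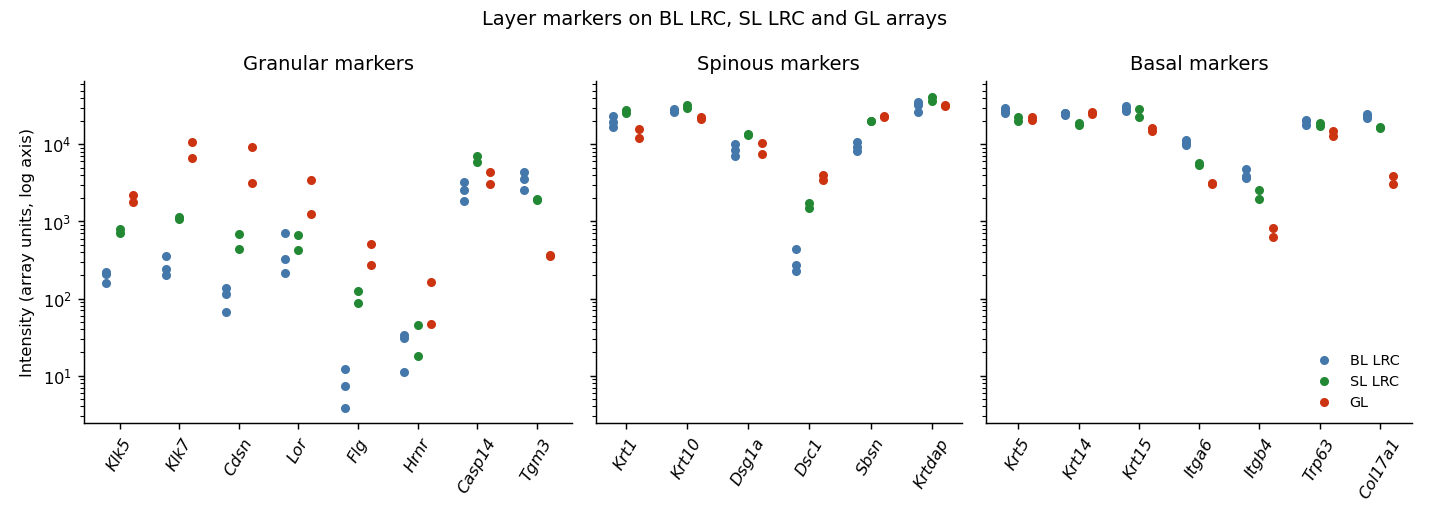
Intensity (array units, log axis) of granular, spinous and basal markers on each BL LRC, SL LRC and GL array, with 1 point per array. Klk7 and Cdsn lie higher in GL (Klk7 at 10668 and 6593 against 1089.9 and 1134 in SL LRC), whereas Tgm3 (354 and 365 against 1879 and 1948) and Col17a1 (3025 and 3859 against 17015 and 16255) lie lower.

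Markers of Langerhans, myeloid and T cells were higher in GL. Of 18 Langerhans and myeloid cell genes, 15 were higher in GL, 0 lower, with a median of 4.37 against -0.04 over all genes, of which 5.34% were higher and 4.03% lower. Their summed intensity was 92918 and 48977 in GL and 6673 and 7903 in SL LRC, and 18 and 17 of them were above background in GL but 10 and 9 in SL LRC. The defining marker Cd207 (langerin) stayed below background on both SL LRC arrays. Of 12 T cell genes measured, 8 were higher and 0 lower (median 3.78), with sums of 34404 and 11240 in GL and 3767 and 3705 in SL LRC. Of 12 melanocyte genes, 2 were higher (median 1.00, and 2.55 without GL 1, 0.47 without GL 2, 1.99 without SL LRC 1 and 0.46 without SL LRC 2), with sums of 2242 and 3314 in GL and 815 and 726 in SL LRC. Of 15 fibroblast and endothelial genes 3 were higher, and 1 without GL 1 (median 0.42, which turned to -0.24 without SL LRC 2 and to -0.015 with averaged probe sets and was 1.02 without GL 2), with sums of 18967 and 10404 against 1480.0 and 2196. In that last list the sum in GL was mostly Vim, and the endothelial gene Tek was not above background on any of the 4 arrays. Of 10 Merkel cell genes 1 was higher, and Sox2, a defining factor, was at the floor of 1 on both GL arrays. The part of these cells in the differences below was not tested, and in sorted bulk samples a larger share of cells of a type and more RNA per cell cannot be told apart.

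**Figure D2:**
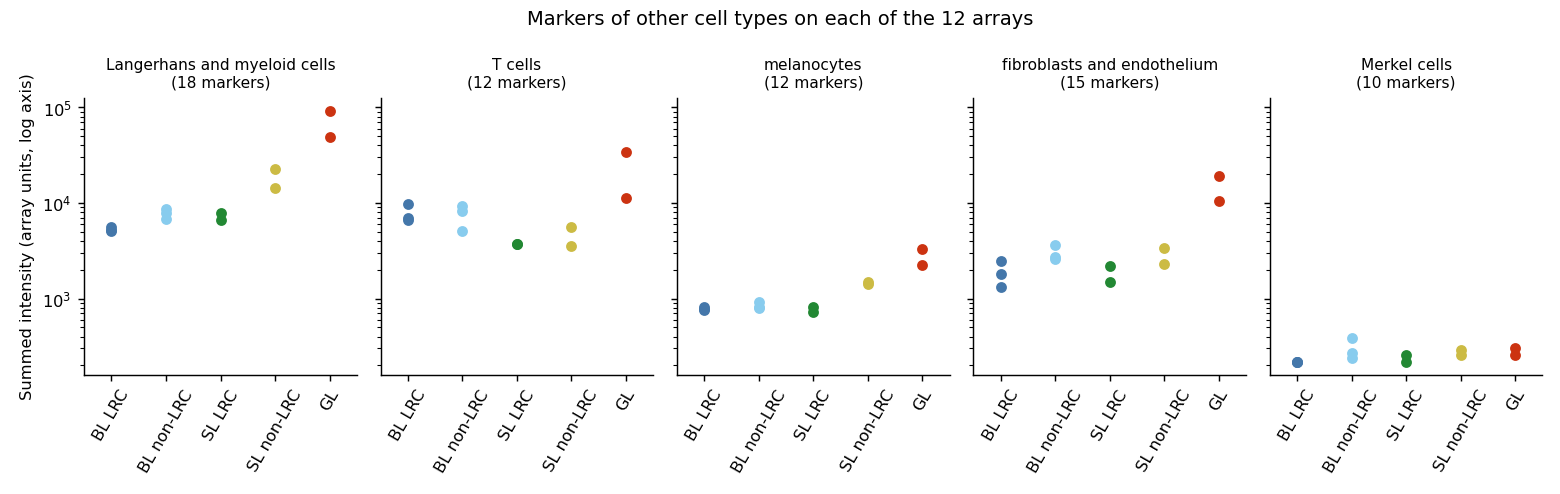
Summed intensity (array units, log axis) of the markers of 5 other cell types on each of the 12 arrays, with 1 point per array. The Langerhans and myeloid sum is 92918 and 48977 on the GL arrays, 22563 and 14193 on the SL non-LRC arrays and at most 8584 on the others. GL 1 lies above GL 2 for the first 2 lists and below it for melanocytes.

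Within the Langerhans and myeloid list the antigen-presentation genes had high levels on both GL arrays. H2-Aa, the alpha chain of the class II molecule I-A, read 223 and 343 units in SL LRC and 14439 and 6674 in GL, a rise of 5.15 ± 0.51 (35.5-fold, adjusted p = 7.49e-06). Cd74, the invariant chain that guides class II molecules, read 544 and 625 in SL LRC and 23091 and 12199.6 in GL (4.85 ± 0.52, adjusted p = 1.59e-05). H2-Ab1 and H2-Eb1, which encode class II beta chains, rose by 4.39 ± 0.52 and 5.02 ± 0.81. The 2 groups were far apart for each of these genes, and GL 1 was the higher GL array for all 4.

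Csf1r, the receptor through which Langerhans cells are maintained, stayed below background in SL LRC by the probe set used and read 5081 and 1941 in GL, at least 84.2-fold higher (adjusted p = 6.79e-06). Another Csf1r probe set, above background on all 4 arrays, differed by 2.50 log2 units, so the bound holds for the first probe set alone. Ly75, an endocytic receptor of dendritic cells, was at least 3.26-fold higher (1.01 and 1.47 against 229.7 and 64.3 units). Mfge8, whose product binds apoptotic cells, rose by 4.35 ± 0.43 (20.4-fold), and Fcer1g, a signalling chain of Fc receptors, by 4.56 ± 0.53. Ptprc, the pan-leukocyte phosphatase CD45, was at least 44.5-fold higher. Cd207 read 33.1 and 32.2 in SL LRC and 995 and 403 in GL, at least 17.0-fold higher (adjusted p = 0.0496, lost without any 1 of the 4 arrays, highest 0.29). Every one of the 18 list members was higher on GL 1 than on GL 2, by a median of 1.32 log2 units.

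Promoters of 3 of these antigen-presentation and uptake genes are shown because they hold the letters of the Y box, the inverted CCAAT element of class II promoters that NF-Y binds. Ly75 is not a class II gene and is not on the Langerhans and myeloid list, so its match is one of letters only. The sequences run from 160 to 21 bases before the RefSeq start of transcription (GRCm38.p6), 5′ to 3′ on the gene's strand, at chr17:34287844-34287983 (minus strand), chr17:34305707-34305846 (plus strand) and chr2:60383294-60383433 (minus strand). Capitals mark matches to the letters CTGATTGG, searched on both strands.
H2-Aa: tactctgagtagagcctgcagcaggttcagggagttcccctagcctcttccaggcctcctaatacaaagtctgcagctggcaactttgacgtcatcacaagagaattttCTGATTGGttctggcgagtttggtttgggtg
H2-Eb1: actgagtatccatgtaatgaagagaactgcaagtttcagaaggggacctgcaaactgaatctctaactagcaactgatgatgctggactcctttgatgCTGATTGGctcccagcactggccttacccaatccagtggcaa
Ly75: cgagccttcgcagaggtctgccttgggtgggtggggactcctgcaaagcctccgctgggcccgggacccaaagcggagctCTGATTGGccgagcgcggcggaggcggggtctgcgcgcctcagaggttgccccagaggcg
The match began 51 bases before the start in H2-Aa, 62 in H2-Eb1 and 80 in Ly75. In the 250 bases before the start, 3.83% of 32851 promoters held this motif, and so did 2 of the 12 Langerhans and myeloid list genes with a promoter in the table, H2-Aa and H2-Eb1. A match describes letters in this window and is not evidence of binding.

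T cell genes followed the same order of arrays. Cd3g, a chain of the T cell receptor complex, read 413 and 216 in SL LRC and 8775 and 3389 in GL (4.19 ± 0.47, 18.3-fold, adjusted p = 2.54e-05). Cd3e, another chain, read 195 and 192 in SL LRC and 6784 and 1894 in GL (4.21 ± 0.63, adjusted p = 0.000355). Cd3d, Cd7 and the cytotoxic granule gene Nkg7 were called too, the first and last with 1 of the 2 SL LRC arrays above background. Levels on GL 1 exceeded those on GL 2 for 10 of 12 members (median 1.75). The melanocyte genes ran the other way between the GL arrays, 2 of 12 being higher on GL 1. Dct, an enzyme of melanin synthesis, read 33.7 and 56.1 in SL LRC and 937 and 1399 in GL (adjusted p = 5.45e-05), and Tyrp1, a second such enzyme, was at least 7.53-fold higher. Mlana, Kit and Tyr did not pass the test. Vim, an intermediate filament of mesenchymal cells, leukocytes and melanocytes, read 498 and 859 in SL LRC and 15746 and 7794 in GL (4.08 ± 0.50, 16.9-fold, adjusted p = 5.21e-05). Mgp was called (1.71 ± 0.41, lost without GL 1 or SL LRC 2, highest 0.111), as was Sparc (1.48 ± 0.41, lost without GL 1, GL 2 or SL LRC 1, highest 0.44), whereas Dcn was not (adjusted p = 0.0528). Cck was at least 1.05-fold higher, a call lost without any 1 array (highest 0.2).

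Among the genes of the cornified envelope, the protein shell built under the membrane of granular cells, 3 of 41 measured were higher in GL and 0 lower, where 5.34% of all genes were higher (median 0.58 against -0.04). The count of higher members was 9 with log2 of the value plus 32 (and 1 lower), 5 with the 4 arrays alone, 6 without GL 2, 2 without either SL LRC array and 1 without GL 1. Sprr1a, a small proline-rich protein that cross-links the envelope, read 6107 and 6546 in SL LRC and 28904 and 20219 in GL, a rise of 1.94 ± 0.30 (3.82-fold, adjusted p = 0.000407). Lce1a2, a late envelope protein, read 17.4 and 69.2 in SL LRC and 1368 and 500.5 in GL (adjusted p = 0.00967, lost without GL 1 or SL LRC 1, highest 0.136). Crct1 rose by 3.45 ± 0.94 (adjusted p = 0.0272, lost without GL 1 or SL LRC 2, highest 0.287). The groups did not overlap for these 3 genes. The Crct1 call was lost against both SL groups and without the mean-variance trend of the moderation.

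The best known envelope genes did not pass the test, although their GL arrays lay above both SL LRC arrays. Lor (loricrin), the most abundant envelope protein, read 666 and 427 in SL LRC and 3476 and 1255 in GL (1.97 ± 0.64, adjusted p = 0.0679). Ivl (involucrin), the scaffold on which the envelope forms, read 535 and 352 in SL LRC and 1754 and 829.9 in GL (1.48 ± 0.49, adjusted p = 0.0722). Flg (filaggrin), which bundles keratin filaments, read 87.5 and 125 in SL LRC and 516 and 271 in GL (1.84 ± 1.04, adjusted p = 0.348). GL 1 was the higher GL array for each of the 3. Lce1m (2.57 ± 0.83, adjusted p = 0.0647) and Hrnr (1.60 ± 1.14, adjusted p = 0.484) did not pass either. In the step from BL LRC to SL LRC, which shares the SL LRC arrays, 6 of the 41 genes were higher and 0 lower, where 1.41% of all genes were higher and 1.41% lower (256 each). Flg rose there by 3.90 ± 0.95 (adjusted p = 0.035) and Sprr1a by 2.51 (adjusted p = 0.000133).

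The promoter of Sprr1a is shown because AP-1 sites are the best described element of small proline-rich gene promoters. It lies at chr3:92485902-92486041 (minus strand) of GRCm38.p6, from 160 to 21 bases before the RefSeq start, and capitals mark matches to the AP-1 letters TGANTCA on both strands, 146 and 116 bases before the start.
Sprr1a: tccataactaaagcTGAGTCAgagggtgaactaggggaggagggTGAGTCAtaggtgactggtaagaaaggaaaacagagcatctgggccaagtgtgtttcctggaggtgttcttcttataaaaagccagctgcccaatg
In 250 bases before the start the motif occurred in 6.75% of 32851 promoters and in 17 of the 36 envelope genes with a promoter in the table, Lor, Ivl and Flg among them. Sprr1a passed the test and those 3 did not.

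Enzymes that cross-link the envelope and process filaggrin were called in both directions, with 2 of 20 higher and 2 lower (St14, Klk5, Tgm3 and Capns2), and 0 higher without GL 1. Of all genes 5.34% were higher and 4.03% lower. Tgm3, a transglutaminase, read 1879 and 1948 in SL LRC and 354 and 365 in GL, and so fell by 2.41 ± 0.33 (5.33-fold lower, adjusted p = 0.000151). Its level was already lower in SL LRC than in BL LRC by 0.85 ± 0.30, a difference that did not pass (adjusted p = 0.184). St14 (matriptase), a membrane protease at the head of the filaggrin-processing cascade, rose by 1.06 ± 0.21 (adjusted p = 0.00313, lost without GL 1 or SL LRC 1, highest 0.063). Capns2, a calpain small subunit, fell by 1.12 ± 0.25 (lost without GL 1, SL LRC 1 or SL LRC 2, highest 0.103). Tgm1, the main transglutaminase of the envelope, read 54.0 and 69.1 in SL LRC and 817 and 394 in GL (3.22 ± 1.08, adjusted p = 0.0773), and Asprv1, a protease of profilaggrin, stood at 1.46 ± 0.46 (adjusted p = 0.0547). Casp14, the caspase that degrades filaggrin, read 5863 and 7047 in SL LRC and 3063 and 4325 in GL (-0.82 ± 0.28, adjusted p = 0.0883), and Padi3 did not pass.

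Proteases and inhibitors of desquamation had 10 of 30 members higher, where 5.34% of all genes were higher, and 2 lower (median 0.70). Klk7, a kallikrein that cuts corneodesmosin, read 1089.9 and 1134 in SL LRC and 10668 and 6593 in GL, a rise of 2.92 ± 0.31 (7.54-fold, adjusted p = 1.59e-05). Klk5, the kallikrein that activates Klk7, read 787 and 714 in SL LRC and 2199 and 1782 in GL (1.40 ± 0.31, adjusted p = 0.00692, lost without GL 1 or SL LRC 2, highest 0.0914). Klk10 read 326 and 550.5 in SL LRC and 7973 and 2232 in GL (3.31 ± 0.56, adjusted p = 0.000938). All GL values of these kallikreins lay above all SL LRC values.

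Lysosomal cathepsins were higher too. Ctsd, an aspartic protease, read 5751 and 6865 in SL LRC and 17631 and 16506 in GL (1.44 ± 0.19, adjusted p = 0.000129), and Ctsl, a cysteine protease, 534 and 547 against 1522 and 1762 (1.60 ± 0.28, adjusted p = 0.00143). Ctsl read 1981 and 1566 on the SL non-LRC arrays, and its call was lost against both SL groups (0.0745). Cst6, a cystatin that inhibits cathepsins and legumain in skin, rose by 1.51 ± 0.32 (lost without GL 1 or SL LRC 1, highest 0.0785). The 2 decreases were Tmprss4, a membrane serine protease (-1.61 ± 0.29, adjusted p = 0.00166), and Klk11 (-1.26 ± 0.30, lost without GL 2 or SL LRC 2, highest 0.169). The other increases were Ctsc (lost without GL 2 or SL LRC 2), Spint1 (lost without GL 1, GL 2 or SL LRC 2), Klk6 (lost without GL 1 or SL LRC 1) and Csta1 (lost without GL 1, SL LRC 1 or SL LRC 2), with a highest adjusted p of 0.174, 0.219, 0.302 and 0.296. With 1 array left out the list held 5 to 8 higher and 1 to 3 lower genes, and 4 of the higher calls remained in each such fit. With median-centred arrays 5 were lower.

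Desmosomes and corneodesmosomes join these cells, and 2 of 14 of their genes were higher and 1 lower in GL (median -0.16, and 0.08 against both SL groups). Of all genes 5.34% were higher and 4.03% lower. Cdsn (corneodesmosin), the adhesive protein of the outermost junctions, read 678 and 433 in SL LRC and 9341 and 3119 in GL (3.32 ± 0.64, 9.97-fold, adjusted p = 0.00276, lost without GL 1, 0.0754). Dsc1, a desmosomal cadherin of differentiated layers, rose by 1.21 ± 0.31 (adjusted p = 0.0197), and Pkp4, a plakophilin-related protein, fell by 0.90 ± 0.24 (adjusted p = 0.0231), calls that were lost without GL 1, SL LRC 1 or SL LRC 2 and for Dsc1 also without GL 2 (highest 0.157 and 0.192). The Dsc1 call was also lost with median-centred arrays and against both SL groups. Of 23 tight junction genes 1 was higher, near the 5.34% of all genes, and 0 lower. Their median of 0.06 turned to -0.17 with median-centred arrays and to -0.003 without SL LRC 1. With the 4 arrays alone 5 were higher. Cldn8, a claudin, read 34.8 and 51.5 in SL LRC and 388 and 389 in GL (adjusted p = 0.000667, lost against both SL groups, 0.0508), with 1 of the 2 SL LRC arrays above background. Cldn1, the claudin whose loss opens the epidermal barrier, stood at 0.53 ± 0.17 (adjusted p = 0.0557), and Cldn10, Tjp3 and Cldn4 did not pass.

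Gap junction genes split into increases and decreases, 3 and 2 of 7 measured, beside 5.34% and 4.03% of all genes. Gjb2 (connexin 26) read 120.4 and 177 in SL LRC and 9773 and 10453 in GL, a rise of 6.12 ± 0.50 (69.3-fold, adjusted p = 1.42e-06). Gja1 (connexin 43) rose by 1.39 ± 0.17 (9987 and 9424 against 22679 and 28522, adjusted p = 5.21e-05). Gjb5 fell by 1.91 ± 0.31 (5484 and 7279.9 against 1506 and 1872, adjusted p = 0.000702), and none of these 3 overlapped between groups. Panx1 was lower and Gjb6 higher, with adjusted p of 0.0256 and 0.0494, and both calls were lost without GL 1, SL LRC 1 or SL LRC 2, that of Gjb6 also without GL 2 (highest 0.327 and 0.248).

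Genes of the lipid barrier had 7 of 38 members lower and 0 higher in GL, where 4.03% of all genes were lower (median -0.21). The median turned to 0.085 against both SL groups, 0.034 without GL 2 and 0.01 without SL LRC 2. The count of lower members was 4 without GL 1, 5 without GL 2, 3 without either SL LRC array or against both SL groups, and 4 with averaged probe sets or without the mean-variance trend of the moderation. Acer1, an alkaline ceramidase, read 8482 and 7882 in SL LRC and 2759.9 and 2882 in GL, and so fell by 1.54 ± 0.20 (2.90-fold lower, adjusted p = 9.86e-05). Sptlc3, a subunit of the enzyme that begins sphingolipid synthesis, fell by 1.53 ± 0.23, and Abhd5, the lipase cofactor that acylceramide synthesis needs, by 1.26 ± 0.19 (lost with averaged probe sets, 0.223). Elovl4, which elongates the very long fatty acids of acylceramides, read 9436 and 10159 in SL LRC and 4382 and 5892 in GL (-0.95 ± 0.26, adjusted p = 0.0311, lost without GL 1, SL LRC 1 or SL LRC 2, highest 0.261).

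The step before gave the opposite direction. From BL LRC to SL LRC 11 of the 38 were higher and 0 lower, where 1.41% of all genes were higher and 1.41% lower. The step to GL was below the step to SL LRC for 9 genes and above it for 0. This difference of the 2 steps was tested in the same fit, with 205 genes, 1.13% of all, below 0 and 298, 1.64%, above. Acer1 stood at 1.24 (adjusted p = 0.00118) for the first step and -1.54 for the second, and Elovl4 at 1.55 (adjusted p = 0.00158) and -0.95. Them5, Lipm and Cyp4f39 had called values of 1.58, 1.46 and 1.46 followed by -1.07, -1.22 and -1.23, the later 3 lost without SL LRC 1 or SL LRC 2, those of Them5 and Cyp4f39 also without GL 1 and those of Lipm and Cyp4f39 also without GL 2 (highest 0.152, 0.221 and 0.176). Since both steps hold the SL LRC arrays, the spread of those 2 arrays moves them in opposite directions. The SL non-LRC arrays read 4343 and 3765 for Acer1 and 3379.7 and 2594 for Elovl4, so that their level too was below SL LRC. When GL was set against the mean of both SL groups, Acer1, Abhd5 and Sptlc3 kept their calls, whereas Them5, Lipm, Cyp4f39 and Elovl4 lost theirs. The calls of Them5 and Lipm were also lost with averaged probe sets and without the mean-variance trend. Their highest limma adjusted p over all alternatives was 0.838 and 0.223.

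Epidermal keratins had 6 of 11 members lower and 3 higher in GL (median -0.50), where 4.03% of all genes were lower and 5.34% higher. With 1 array left out 1 was higher, and the lower ones numbered 1 without GL 1 or SL LRC 1, 2 without SL LRC 2 and 4 without GL 2. Krt1, the type II keratin of spinous cells, read 28132 and 25741 in SL LRC and 12271 and 16068 in GL (-0.94 ± 0.20, 1.92-fold lower, adjusted p = 0.0056, lost without GL 1 or SL LRC 1, highest 0.1). Krt10, its partner, read 32913 and 29532 in SL LRC and 22995 and 21161 in GL (-0.50 ± 0.14, adjusted p = 0.0278), and Krt77, a keratin of upper layers and sweat ducts, fell by 0.54 ± 0.13 (adjusted p = 0.0151). Both of the latter calls were lost without any 1 array (highest 0.233 and 0.136). Krt78 read 1907 and 3874 in SL LRC and 482 and 759 in GL (-2.17 ± 0.41, adjusted p = 0.00216, lost without SL LRC 2, 0.0571), after a rise of 2.88 from BL LRC (adjusted p = 0.000508).

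Basal keratins did not move together. Krt15 fell by 0.73 ± 0.16 (adjusted p = 0.00767, lost without GL 1 or SL LRC 1, highest 0.151). Krt14 read 18819 and 18023 in SL LRC and 24820.2 and 26667 in GL, a rise of 0.48 ± 0.12 (adjusted p = 0.0213, lost without any 1 array, highest 0.137, and lost with median-centred arrays), while Krt5, its partner, overlapped between the groups (22366 and 20248 against 22513 and 20559, adjusted p = 0.978). Krt79, which marks the upper hair follicle, rose by 1.25 ± 0.25 (adjusted p = 0.00319, lost without the mean-variance trend, 0.132), from 9007 and 7563 to 20541 and 18767 units. Krt2 was above background on 1 array of each group and did not pass. The calls of Krt1, Krt10, Krt77, Krt78, Krt14 and Krt79 were lost when GL was set against the mean of both SL groups.

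**Figure D3:**
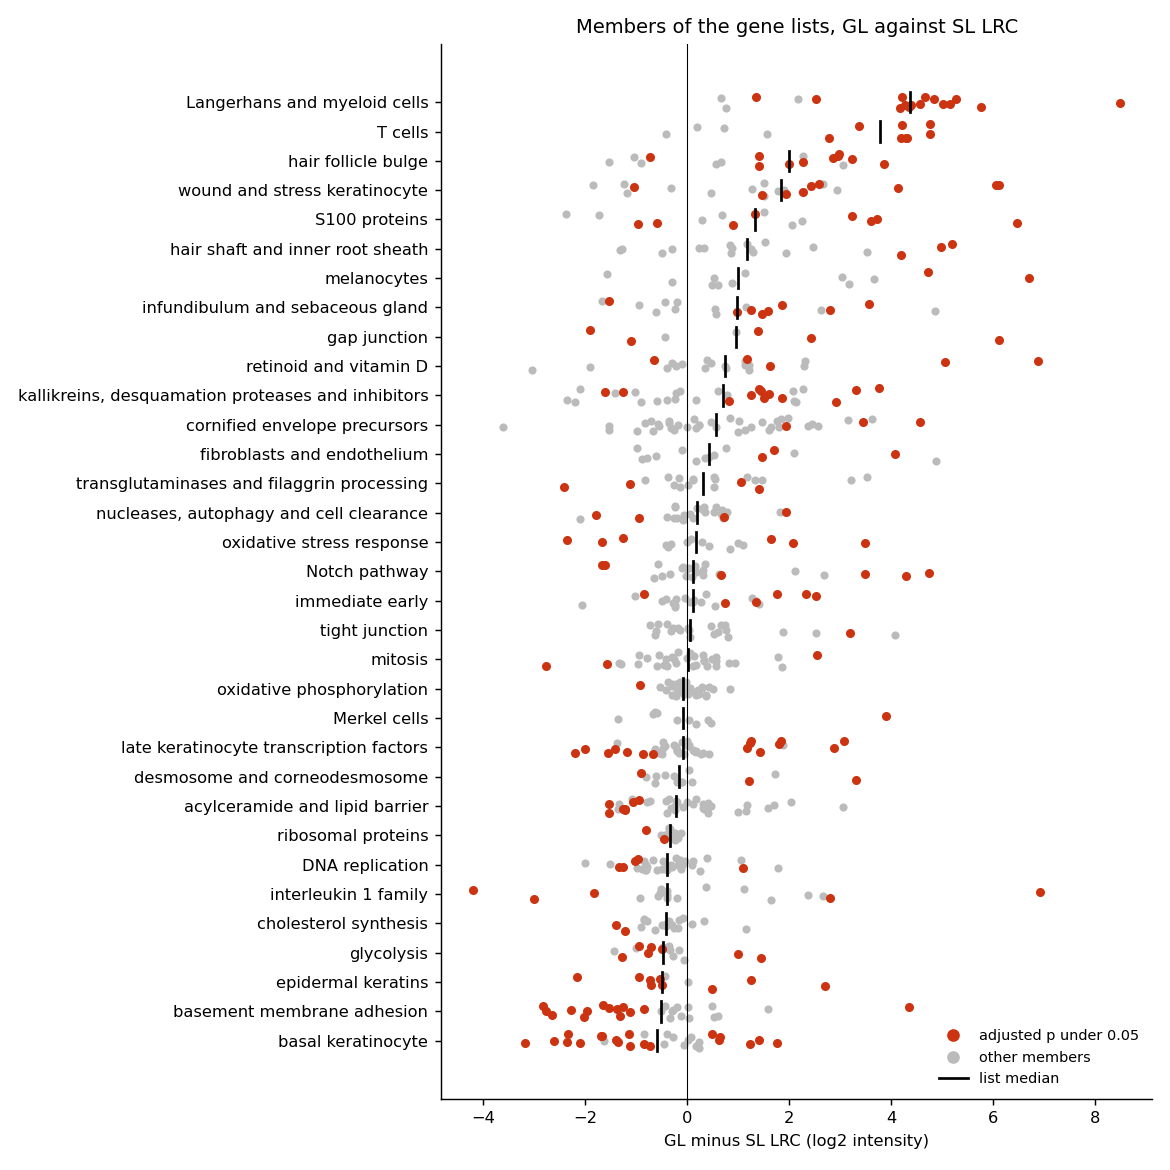
Difference GL minus SL LRC (log2 intensity) of each member of 33 gene lists, ordered by the list median (black bar), with members past adjusted p under 0.05 in red and the others in grey. Langerhans and myeloid genes have the highest median (4.37) and basal keratinocyte genes the lowest (-0.59).

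Genes that hold cells to the basement membrane had 13 of 27 members lower and 1 higher, where 4.03% of all genes were lower (median -0.51). Col17a1 (collagen XVII), a transmembrane collagen of hemidesmosomes, read 17015 and 16255 in SL LRC and 3025 and 3859 in GL, and so fell by 2.28 ± 0.18 (4.87-fold lower, adjusted p = 8.37e-07). Itgb4, the integrin subunit of hemidesmosomes, read 2581 and 1932 in SL LRC and 818 and 623 in GL (-1.65 ± 0.26, adjusted p = 0.000541), and its partner Itga6 5736 and 5419.5 against 3154 and 3044 (-0.85 ± 0.16, adjusted p = 0.00221, lost without the mean-variance trend, 0.0581). Dst, which links hemidesmosomes to keratin, fell by 1.31 ± 0.19. No GL array reached an SL LRC array for these 4 genes.

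Components of the membrane itself fell as well. Col4a1, a collagen IV chain, read 1136 and 714 in SL LRC and 134 and 119.7 in GL (-2.83 ± 0.30, 7.11-fold lower, adjusted p = 1.9e-05), and Col7a1, the anchoring fibril collagen, fell by 2.65 ± 0.38 (adjusted p = 0.000227). Itga3, a receptor for laminin 332, fell by 2.02 ± 0.35, and Lama3, a laminin 332 chain, by 1.12 ± 0.18 (lost with averaged probe sets, 0.171). Fras1 was the member called higher (4.36 ± 1.17, lost without GL 1, GL 2 or SL LRC 1, highest 0.325). With 1 array left out between 11 and 12 members were lower, and 10 stayed lower in each such fit. In the step from BL LRC to SL LRC 8 of the 27 were lower and 1 higher, where 1.41% of all genes were lower and 1.41% higher. Itga6 fell by 0.91 in that step (adjusted p = 0.00195) and Itga3 by 1.45 (adjusted p = 0.0214), and the difference between the steps did not pass for either (adjusted p = 0.963 and 0.756). For Col17a1 the later step was the larger fall (-2.28 against -0.49, adjusted p of the difference 0.00402).

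Other genes of basal keratinocytes had 13 of 30 members lower and 6 higher (median -0.59), beside 4.03% and 5.34% of all genes. The higher count was 1 with median-centred arrays, without the mean-variance trend, and without GL 1 or SL LRC 1, and 2 without GL 2 or SL LRC 2. Of the higher calls 1 (Cdh3) and of the lower ones 10 held in each fit without 1 array. Lrp4, a Wnt and BMP co-receptor, read 4117 and 3909 in SL LRC and 772 and 817 in GL (-2.34 ± 0.20, 5.05-fold lower, adjusted p = 2.7e-06). Met, the receptor for hepatocyte growth factor, fell by 2.10 ± 0.25, Wnt4, a secreted Wnt ligand, by 1.69 ± 0.21, Fgfr2, the receptor for keratinocyte growth factor, by 1.39 ± 0.18, and Bcl11b, a transcription factor, by 1.15 ± 0.17. Each had adjusted p of 0.000256 or less and no overlap. Trp63, the master factor of stratified epithelia, read 19162 and 17492 in SL LRC and 12816 and 14935 in GL and did not pass (-0.40 ± 0.17, adjusted p = 0.173). The other Trp63 probe sets above background on the 4 arrays differed by -0.34, -0.39 and 0.00. Cdh3 (P-cadherin) went the other way, from 384 and 383 to 1407 and 1186 (1.75 ± 0.26, adjusted p = 0.000314), after a fall of 1.65 from BL LRC (adjusted p = 0.000909).

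Transcription factors of late keratinocyte differentiation had 8 of 40 members higher and 7 lower, beside 5.34% and 4.03% of all genes. Their median of -0.09 turned to 0.02 without GL 1, and to 0.04 without SL LRC 1 and against both SL groups. The higher count was 2 without GL 1 and against both SL groups, and 4 without SL LRC 1 or SL LRC 2. Gata3, a factor that barrier lipid synthesis needs, read 11404 and 11761 in SL LRC and 3459 and 4555 in GL (-1.54 ± 0.18, 2.92-fold lower, adjusted p = 4.36e-05). Pou2f3, a POU factor of suprabasal cells, fell by 1.42 ± 0.19, Ppara, a lipid-sensing nuclear receptor, stood at -2.21 ± 0.33, Klf5 at -1.17 ± 0.19 and Rora, an orphan nuclear receptor, at -2.00 ± 0.34, all 3 called (Rora lost with averaged probe sets and against both SL groups, highest 0.119). Vdr, the vitamin D receptor, rose by 1.16 ± 0.20 (1823 and 1588 against 3387 and 4289.7, adjusted p = 0.0013, lost against both SL groups, 0.0729). Prdm1 (Blimp1), a repressor of late granular cells and sebocytes that leukocytes also use, read 89.5 and 49.8 in SL LRC and 650.2 and 484 in GL (3.07 ± 0.62, lost without GL 1, 0.0582). Klf4 (-0.50), Cebpa (-0.48), Grhl3 (-0.47) and Zfp750 (0.04), regulators of barrier formation, were not called. For Gata3 and Pou2f3 the step from BL LRC was 0.25 and 0.53 and the difference of the steps passed (adjusted p = 0.00543 and 0.00311).

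Notch genes, which drive the basal to spinous switch, had 4 of 24 members higher and 2 lower, beside 5.34% and 4.03% of all genes. Their median was 0.12, turning to -0.10 with median-centred and -0.01 with quantile-normalised arrays. The higher count was 1 whichever array was left out. The ligand Jag2 read 1902 and 1471 in SL LRC and 432 and 691 in GL (-1.61 ± 0.24, adjusted p = 0.000296), and the ligand Dll1 fell by 1.67 ± 0.38 (lost without GL 1 or SL LRC 1, highest 0.172). The target Heyl was at least 6.70-fold higher (8.1 and 10.8 against 264 and 237), a call lost with averaged probe sets (0.126). Hes7 (at least 1.29-fold) and Hey1, also targets, were called higher, each lost without any 1 array (highest 0.145 and 0.26). Jag1 was the other increase, at 0.66 ± 0.20 (adjusted p = 0.0457, lost without any 1 array, highest 0.3).

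Replication genes had 4 of 35 members lower and 1 higher in GL (median -0.40), where 4.03% of all genes were lower and 5.34% higher. The lower count was 13, with 0 higher and a median of -0.755, against both SL groups, 10 with median-centred arrays, and 2 without GL 2, SL LRC 1 or SL LRC 2. Mcm3, part of the helicase that opens DNA for copying, fell by 1.35 ± 0.21 (964 and 786 against 374 and 313, adjusted p = 0.000423), a call lost with averaged probe sets (0.318). Of its 3 other probe sets above background on the 4 arrays, 2 were lower in GL too, and the remaining one differed by 0.01 log2 units. Cdt1, which loads that helicase, fell by 1.27 ± 0.23 (adjusted p = 0.00164, lost with averaged probe sets, 0.425), and its other probe set differed by -0.14. Orc6 and Rpa2 were lower and Rrm2 higher, each lost without SL LRC 1 or SL LRC 2, Orc6 also without GL 1 or GL 2, Rpa2 without GL 2 and Rrm2 without GL 1 (highest 0.249, 0.275 and 0.201). The step from BL LRC to SL LRC had 19 of the 35 lower and 0 higher, where 1.41% of all genes were lower and 1.41% higher. In that step Mcm3 stood at -1.88 and Cdt1 at -1.98. Mitosis genes had 1 increase and 2 decreases among 34, and a median of 0.02 that turned to -0.20 under both scalings, -0.11 without GL 1 and -0.21 without SL LRC 2. Against both SL groups 9 mitosis genes were lower and 0 higher, with a median of -0.91. Ttk, a spindle checkpoint kinase, read 2034 and 2467 in SL LRC and 296 and 368 in GL (-2.76 ± 0.41, 6.79-fold lower, adjusted p = 0.000349). Prc1 fell by 1.57 ± 0.36 (lost without GL 2 or SL LRC 1, highest 0.151), and Kif2c rose by 2.55 ± 0.65 (lost without GL 1 or SL LRC 2, highest 0.215). Mki67 and Aspm, a spindle pole gene, overlapped between the groups (987 and 848 against 1508 and 868 for Mki67, adjusted p = 0.542, and 141 and 63.2 against 111 and 85.4 for Aspm, adjusted p = 0.978), and Anln and Kif20a did not pass. Dlx1 and Slc1a3, markers known from work on slowly and quickly dividing basal cells, stood at 0.06 ± 0.90 and -0.67 ± 0.71 (adjusted p = 0.986 and 0.685) with overlapping arrays.

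All 19 ribosomal protein genes measured lay below 0, by a median of -0.34, and 2 of them were called lower, Rps6 (-0.80 ± 0.23) and Rps4x (-0.46 ± 0.14), each lost without any 1 array (highest 0.197 and 0.273). Of all 18193 genes 9585 lay below 0, and 5.34% were called higher and 4.03% lower. With median-centred arrays 12 of the 19 were lower, with quantile normalization 2, and without the mean-variance trend or against both SL groups 0. Of 36 oxidative phosphorylation genes 1 was lower, Uqcrc1 (-0.92 ± 0.19, lost without GL 1 or SL LRC 1, highest 0.0799), and 0 higher (median -0.08, and 0.02 without GL 1). Glycolysis genes had 5 of 17 lower and 2 higher (median -0.47), none of them called in all 4 fits without 1 array. The lower count was 8 with median-centred arrays and 0 with the 4 arrays alone. Pfkp, a phosphofructokinase, rose by 1.00 ± 0.19 (adjusted p = 0.00261, lost without SL LRC 1, 0.0562) and Hk2, a hexokinase, by 1.44 ± 0.32 (lost without GL 2 or SL LRC 2, highest 0.0872), while Hk1, Pfkl, Pdk1, Pgam1 and Ldha were lower. Each of these calls was lost without GL 1 or SL LRC 1, those of Hk1 and Ldha also without GL 2 and those of Pfkl, Pgam1 and Ldha also without SL LRC 2 (highest 0.408, for Pdk1). Of 19 cholesterol synthesis genes 2 were lower, Hsd17b7 (-1.40 ± 0.34) and Lss (-1.23 ± 0.37), each lost without any 1 array (highest 0.11 and 0.197), and 0 higher. With median-centred arrays 5 were lower. In the list of nucleases, autophagy and cell clearance, which names the removal of organelles, 2 of 25 were higher and 2 lower. Bnip3, a mitophagy receptor, fell by 1.80 ± 0.26 (1589 and 2186 against 578 and 496, adjusted p = 0.000246), and Wipi1, an autophagosome protein, rose by 1.94 ± 0.37 (adjusted p = 0.00229, lost without SL LRC 1, 0.0519, and with averaged probe sets). Map1lc3a was higher and Atg5 lower, each lost without GL 1 or SL LRC 1, Map1lc3a also without SL LRC 2 and Atg5 without GL 2 (highest 0.216 and 0.4), and another probe set of Atg5 had the opposite sign.

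The interleukin 1 family had 3 of 18 members lower and 2 higher, beside 4.03% and 5.34% of all genes. Il33, an alarmin of epithelial nuclei, read 1418 and 884 in SL LRC and 73.3 and 50.8 in GL (-4.2 ± 0.41, 18.3-fold lower, adjusted p = 7.49e-06), and it had also fallen from BL LRC (2824, 3916 and 2767) by 1.48 (adjusted p = 0.0442). Il1r2, the decoy receptor for interleukin 1, fell by 3.0 ± 0.39 (1091 and 801 against 153 and 88.8) and Il1rn, the receptor antagonist, by 1.82 ± 0.28 (5913 and 4983 against 1383 and 1705). Il18r1, the interleukin 18 receptor of lymphocytes, was at least 9.97-fold higher (4.64 and 2.00 against 644 and 215), and Il18 rose by 2.80 ± 0.79 (lost without GL 1, SL LRC 1 or SL LRC 2, highest 0.285).

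S100 and related calcium-binding proteins had 6 of 15 members higher and 2 lower (median 1.33), beside 5.34% and 4.03% of all genes. S100a1 read 477 and 562 in SL LRC and 5359 and 7394 in GL (3.60 ± 0.27, 12.2-fold, adjusted p = 6.29e-07). S100a4, which fibroblasts and leukocytes also make, read 356 and 433 in SL LRC and 7915 and 3416 in GL (3.73 ± 0.40, adjusted p = 2e-05), and S100b, a marker of melanocytes and glia, was at least 17.4-fold higher (8.33 and 6.44 against 677 and 620.1). S100a6 rose by 1.33 ± 0.15 and Calml3, a calmodulin-like protein of keratinocytes, by 3.24 ± 0.45. Calm4, another epidermal calmodulin, fell by 0.96 ± 0.20 (lost without GL 1, 0.061). S100a13 was higher (0.89 ± 0.27, lost without GL 1, GL 2 or SL LRC 1, highest 0.364) and S100a10 lower (-0.58 ± 0.14, lost without GL 2 or SL LRC 1, highest 0.192).

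Genes of the oxidative stress response had 3 of 16 higher and 3 lower (median 0.18, and -0.11 without GL 2), beside 5.34% and 4.03% of all genes. The 3 decreases were metallothioneins, which bind zinc and copper: Mt1 fell by 1.67 ± 0.22 (7076 and 8407 against 2339 and 2510.0), Mt2 by 1.26 ± 0.19, and Mt4, the form of stratified epithelia, stood at -2.35 ± 0.44 (13574 and 14989 against 2108 and 3721, lost without GL 1, 0.0531). The 3 increases, Gpx2 (3.49 ± 0.55), Gclc (1.65 ± 0.27) and Gclm (2.09 ± 0.36), encode a glutathione peroxidase and both subunits of the enzyme that limits glutathione synthesis. Of 22 retinoid and vitamin D genes 4 were higher and 1 lower, where 5.34% of all genes were higher and 4.03% lower. Crabp2, which carries retinoic acid to the nucleus, rose by 1.63 ± 0.26 (1757 and 1593 against 6229 and 4295, lost against both SL groups, 0.0523), Lrat, which stores retinol as esters, was at least 25.4-fold higher, Aldh1a2, which makes retinoic acid, at least 18.0-fold higher, and Rarg, a retinoic acid receptor, fell by 0.65 ± 0.18 (lost without any 1 array, highest 0.192).

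Immediate early genes, which respond to stimuli within minutes and can be raised by tissue dissociation, had 5 of 24 higher and 1 lower (median 0.12, -0.11 with median-centred arrays). The shares of all genes were 5.34% and 4.03%. The higher count was 2 without GL 1 or SL LRC 1. Ier5 read 856 and 899 in SL LRC and 5770.3 and 4447 in GL (2.53 ± 0.29, adjusted p = 2.93e-05), and Egr2 2042 and 2869 against 14045 and 10655 (2.34 ± 0.30, adjusted p = 9.34e-05). Ier3 and Btg2 (lost without GL 1 or SL LRC 1, highest 0.116 and 0.159) and Jun (lost without any 1 array, highest 0.119) were higher too, and Myc was lower (-0.85 ± 0.21, lost without GL 1, GL 2 or SL LRC 2, highest 0.155). Fos, Fosb, Junb and Egr1 stood at -0.04, -0.24, 0.14 and 0.55 and were not called. GL 1 exceeded GL 2 for 20 of the 24 genes, by a median of 0.36, and the median log2 intensity of all genes was 7.70 on GL 1 and 7.60 on GL 2.

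Keratinocyte genes known from wounds, which are also made by the companion layer and outer root sheath of follicles, had 8 of 22 members higher and 1 lower (median 1.84). The shares of all genes were 5.34% and 4.03%. Krt6a read 987 and 2292 in SL LRC and 26962 and 25945 in GL, a rise of 4.14 ± 0.48 (17.6-fold, adjusted p = 3.38e-05). Its partner Krt16 read 451 and 442 in SL LRC and 2434 and 2954 in GL (2.59 ± 0.38, adjusted p = 0.000259), and Krt17 7426 and 5302 against 17500.3 and 17079.8 (1.46 ± 0.23, adjusted p = 0.000562). The 2 GL arrays lay close together for all 3 keratins and above both SL LRC arrays. Gjb2 and Sprr1a, described above, are on this list as well, as is Gjb6. Mmp9, a gelatinase that leukocytes make too, rose (called in each fit without 1 array), Fst, an activin antagonist, was higher (2.28 ± 0.44, lost without GL 2 or SL LRC 1, highest 0.0578) and Plau, the urokinase, lower (-1.04 ± 0.26, lost without any 1 array, highest 0.149). Other members that wounds induce did not pass, among them S100a8 (1.5), S100a9 (2.26), Lcn2 (1.78) and Krt6b (-1.86).

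The list of the hair follicle bulge, the niche of follicle stem cells, had 9 of 17 members higher and 1 lower (median 1.99), beside 5.34% and 4.03% of all genes. Sox9 read 1205 and 1172 in SL LRC and 11387 and 10946 in GL, a rise of 3.23 ± 0.23 (9.40-fold, adjusted p = 5.49e-07). Lhx2 read 472 and 494 in SL LRC and 6783 and 7362 in GL (3.87 ± 0.30, 14.6-fold, adjusted p = 8.37e-07). Foxc1 rose by 2.87 ± 0.39, Tbx1 by 2.96 ± 0.43 and Tcf7l1, a Wnt pathway repressor of stem cells, by 2.99 ± 0.48. Tcf7l2 and Id2, 2 further regulators on the list, rose by 1.41 and 1.99. For the first 5 factors the GL arrays differed from each other by less than they did from SL LRC. Krt15, the member called lower, is also a basal keratin, and the bulge genes Cd34, Krt24 and Lgr5 stood at 0.67, -1.53 and 3.06 and did not pass.

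Further follicle genes rose. Hoxc13, a factor of the hair shaft, read 101 and 181 in SL LRC and 2216 and 2736 in GL (4.19 ± 0.47, 18.2-fold, adjusted p = 2.7e-05), and the inner root sheath keratin Krt28 was at least 9.84-fold higher (lost without GL 1 or SL LRC 1, highest 0.0762). The hair shaft keratin Krt35 was at least 17.2-fold higher (lost without GL 1, SL LRC 1 or SL LRC 2, highest 0.165), and with these 3 of 19 hair shaft and inner root sheath genes were higher and 0 lower (median 1.16), and 1 higher without GL 1 or SL LRC 1. Their summed intensity was 9168 and 10944 in GL and 3541 and 4506.5 in SL LRC. Krt25 did not pass (1.95 ± 0.63, adjusted p = 0.0637). The infundibulum and sebaceous gland list had 7 of 19 higher and 1 lower (median 0.99), where 5.34% of all genes were higher and 4.03% lower. It had 2 higher against both SL groups, and sums of 99507 and 94527 in GL and 55158 and 56042 in SL LRC. Plet1, a marker of the junctional zone, rose by 1.85 ± 0.24 (2847 and 2025 against 9379 and 7999, adjusted p = 0.000103), Gata6, a factor of the sebaceous duct, by 2.80 ± 0.41 and Mgst1, a membrane glutathione transferase, by 3.56 ± 0.59 (lost with averaged probe sets, 0.123). Lrig1, which restrains growth factor receptors, rose by 0.98 ± 0.21 (lost without SL LRC 1, 0.116) and the defensin Defb6 by 1.58 ± 0.38 (lost without GL 1 or SL LRC 1, highest 0.156). Scd1, a desaturase of sebaceous lipids, fell by 1.53 ± 0.33 (lost without GL 1 or SL LRC 2, highest 0.0823), and Pparg, Fasn and Mc5r, genes of sebocytes, were not called.

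**Figure D4:**
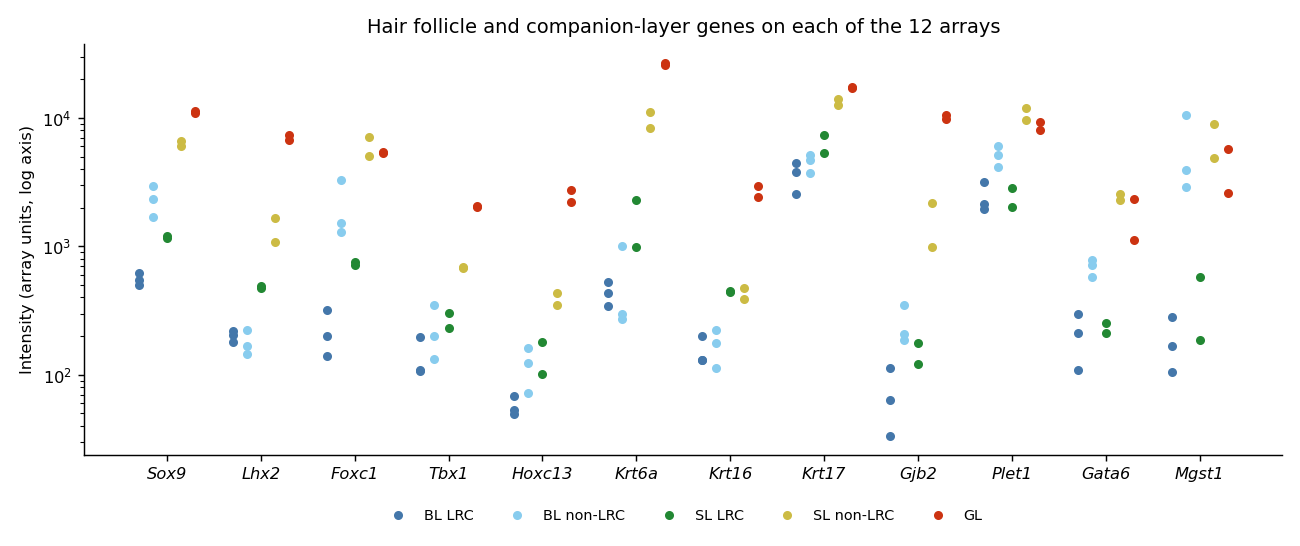
Intensity (array units, log axis) of 12 hair follicle, companion-layer and infundibulum genes on each of the 12 arrays, coloured by group. Sox9 lies at 11387 and 10946 on the GL arrays and at 1205 and 1172 on the SL LRC arrays, with the SL non-LRC arrays at 6591 and 6081 between them.

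The SL non-LRC arrays, which the comparison does not use, lay between the 2 groups for many of these follicle genes and beside GL for others. Sox9 read 6591 and 6081 there, Lhx2 1663 and 1075 and Krt6a 11092 and 8394, whereas Gata6 (2306 and 2568 against 2323 and 1125 in GL) and Plet1 (11852 and 9616 against 9379 and 7999) overlapped with GL. Against the mean of both SL groups the calls of Sox9, Lhx2, Foxc1, Tbx1, Krt6a, Krt16 and Hoxc13 held, and those of Gata6, Mgst1, Krt79, Lrig1 and Defb6 did not. The SL non-LRC arrays belong to the low BioB set, so array set and group cannot be told apart there.

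**Figure D5:**
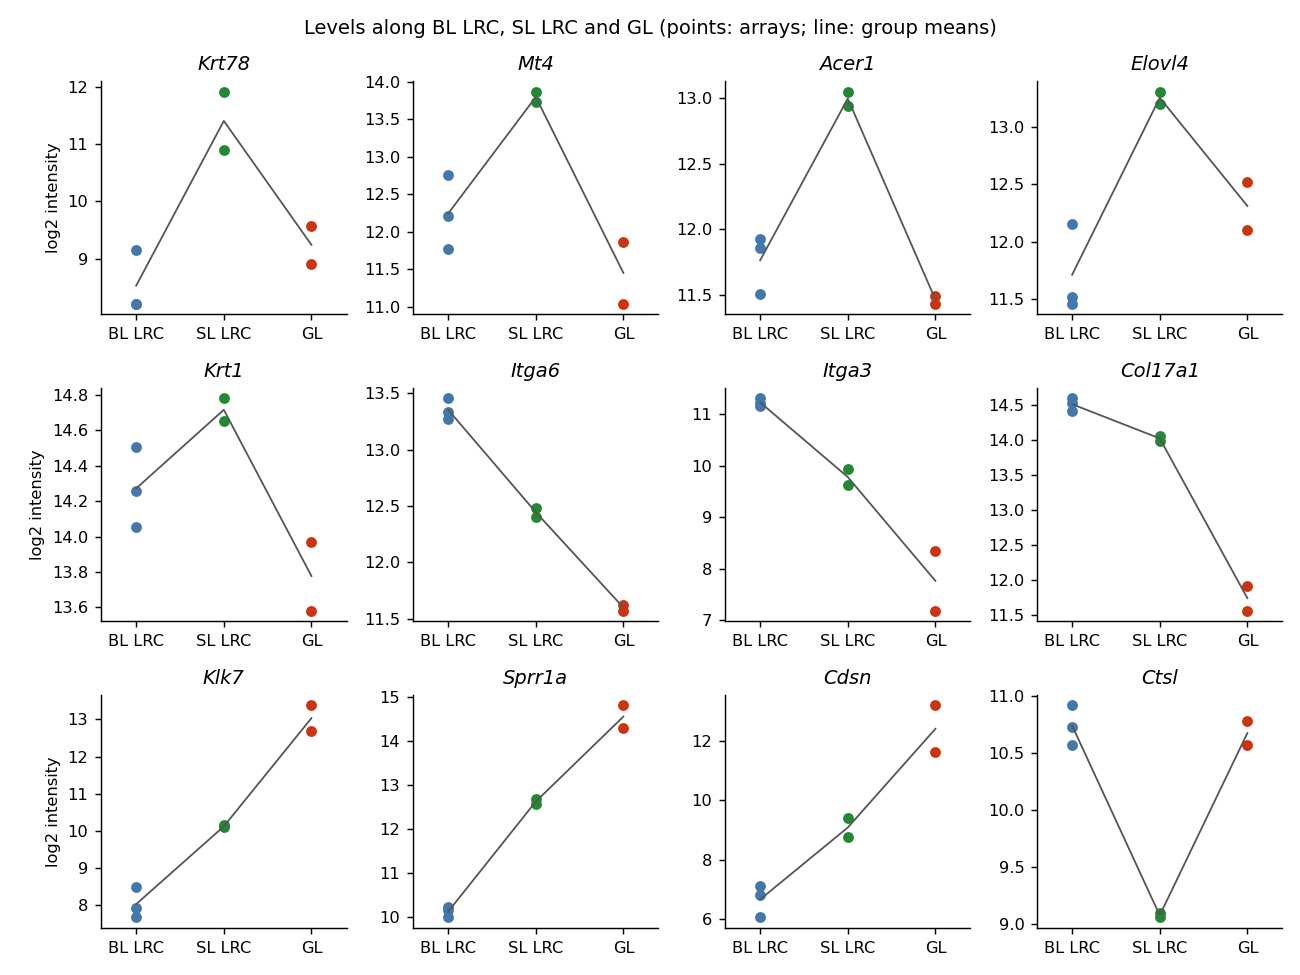
Levels (log2 intensity, y axes not starting at 0) of 12 genes on the BL LRC, SL LRC and GL arrays, with points for arrays and a line through the group means. Krt78, Mt4, Acer1, Elovl4 and Krt1 peak in SL LRC, Itga6, Itga3 and Col17a1 fall toward GL, Klk7, Sprr1a and Cdsn rise toward GL, and Ctsl is lowest in SL LRC.

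Placed beside the step from BL LRC to SL LRC, the values of single genes took different shapes, as the plot of levels along the 3 fractions shows. Klk7 rose by 2.09 ± 0.28 (adjusted p = 0.000728) and then by 2.92, and Cdsn by 2.42 ± 0.58 (adjusted p = 0.0341) and then by 3.32. The difference of the steps did not pass for Klk7 (adjusted p = 0.539) or Cdsn (adjusted p = 0.796). Mt4 rose by 1.56 (adjusted p = 0.0485) and then fell by 2.35, with BL LRC at 3493, 4738 and 6904 units. Ctsl fell by 1.67 (adjusted p = 0.00158) and then rose by 1.60, a call lost against both SL groups, back to the range of BL LRC (1939, 1701 and 1525), and the difference of its steps passed (adjusted p = 0.00145). The SL LRC arrays are shared by both steps, so these shapes rest on those 2 arrays. In the epidermal keratin list the later step was below the earlier for 5 genes and above it for 1, beside 1.13% and 1.64% of all genes. Krt1 stood at 0.44 and then -0.94 (limma adjusted p of the difference 0.035).

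Over all genes, the 15 largest increases included genes made by leukocytes and melanocytes. Beyond Csf1r, Il18r1, Aldh1a2, Tyrp1 and Ly75, they held Ctss, the cathepsin that trims the invariant chain (7.14 and 56.4 against 4980.2 and 2037), Tnfaip2 (2.30 and 42.3 against 2623 and 750.0, with another probe set that differed by 2.44 log2 units) and Emp3, a membrane protein (at least 29.3-fold). Cd69, an early activation marker of lymphocytes, was at least 7.43-fold higher (lost without GL 1, 0.0628), and Gpr171 at least 11.5-fold (lost without GL 1, 0.0533). Wfdc18, a secreted protein with a whey acidic protein domain, was the increase of this set measured above background on all 4 arrays, from 65.1 and 251 to 15553 and 16457 units (6.97 ± 1.00, 125-fold, adjusted p = 0.000251). Pcp4, 2210407C18Rik (at least 28.1-fold), Tmprss11e (at least 7.92-fold) and Pm20d1 (lost without SL LRC 2, 0.0531) complete the set. On the SL non-LRC arrays Wfdc18 read 3478 and 2003.

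The 15 largest decreases included 4 that were above background on all 4 arrays, Il33 and the next 3 named. Nptx1, a secreted pentraxin, read 4128 and 2515 in SL LRC and 124 and 309.5 in GL (-4.04 ± 0.63, 16.4-fold lower, adjusted p = 0.000495), and Tmie 2200.0 and 1138 against 144 and 94.6 (-3.76 ± 0.56, 13.6-fold lower). Other probe sets above background on all 4 arrays differed by -2.52 log2 units for Nptx1 and by -0.58 and -2.28 for Tmie, so these folds hold for the probe sets used. Ackr3, a scavenging chemokine receptor for CXCL12, read 789.8 and 555 in SL LRC and 51.5 and 47.1 in GL (-3.75 ± 0.31, 13.4-fold lower, adjusted p = 1.42e-06), and 2686, 2229 and 2072 in BL LRC. Gdnf, a neurotrophic factor, was at least 7.81-fold lower (182 and 208 against 6.92 and 5.11), and Ptgs2, the inducible cyclooxygenase, at least 2.87-fold lower (lost with the 4 arrays alone and with log2 of the value plus 32, highest 0.0812). Zfp599 (at least 2.25-fold), A930033H14Rik (at least 8.56-fold) and Slc43a1, an amino acid transporter, also held in each fit without 1 array. Spink4, Gm32926, 9330102E08Rik, Clca1, C1s1 and Mfap5 were called, and each call was lost without GL 1 or SL LRC 1. All but that of Clca1 were also lost without SL LRC 2, and those of Gm32926, 9330102E08Rik and Mfap5 without GL 2 as well. Against both SL groups the calls of Gm32926, 9330102E08Rik and Mfap5 were lost, and with averaged probe sets those of Clca1 and Mfap5.

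The design limits what these tests can detect. In data simulated for the GL and SL LRC comparison with 200 of 18193 genes changed, 6% of 2-fold, 34% of 4-fold and 53.5% of 8-fold changes were called, and 71% and 97.8% of the last 2 sizes among the brighter genes. A gene without a call here may therefore differ by several fold. Of the simulated calls at 2-fold, 4-fold and 8-fold, 0%, 10.5% and 2.73% were false. The adjustment is stricter where fewer genes change. The simulation changed 200 genes whereas 1705 were called here, so these shares need not hold for these data.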

How the data were processed

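RNA of sorted cells (5 ng each) was amplified with the Ovation Pico WTA kit and hybridised to Affymetrix mouse arrays, per the labels' protocols. The authors deposited 1 linear intensity per probe set and array, scaled to a trimmed mean of 500.0 as the values show; the summarisation software is not given in the sources used here. Intensities were taken to log2 with no offset. Of 45101 probe sets, 34945 had 1 gene in the platform annotation, and each of 18193 genes was represented by its probe set of highest mean over the 12 arrays. The 5 group means were fitted over 12 arrays with limma 3.58.1 in R 4.3.3 (eBayes with a mean-variance trend, Benjamini-Hochberg adjustment over all genes, threshold 0.05), and GL minus SL LRC was tested, as were the step before and the difference of the steps. A value above the 95th percentile of 27 bacterial probe sets of its array counted as above background. Where no array of the dimmer group passed, the fold is a lower bound, computed from the brighter group's mean against the dimmer group's background or own signal, whichever is higher on each array. The fit was tested on simulated data.

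Replicates were grouped by their titles. The number of arrays limits the precision. The alternatives tried changed the arrays fitted, scaling, filter, probe set, offset, moderation and the SL side, and left out each array in turn. The members and gene lists were chosen with earlier results of these data known. Named genes are the 15 largest called changes in each direction without overlap and with the brighter group above background, up to 5 members of smallest p per list, and a set of layer and division markers. Of 201 such genes, 73 had another probe set above background on the 4 arrays, and in 69 all had the same sign (exceptions Aspm, Atg5, Mcm3 and Trp63). Genes named outside the rule were chosen after their values were seen: Sbsn, Krtdap, Cd207, H2-Ab1, H2-Eb1, Ptprc, Cst6, Klk11, Ctsc, Spint1, Klk6, Csta1, Elovl4, Cyp4f39, Itga3, Lama3, Fras1, Cdh3, Prdm1, Klf4, Cebpa, Grhl3, Zfp750, Jag1, Pgam1, Ldha, Calm4, S100a13, S100a10, Mt4, Myc, Fos, Fosb, Junb, Egr1, Mmp9, Fst, Plau, S100a8, S100a9, Lcn2, Krt6b, Tcf7l2, Id2, Cd34, Krt24, Lgr5, Scd1, Pparg, Fasn, Mc5r, Lrig1, Defb6, and those on no list in the closing section.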

Additional observations from a re-analysis of the deposited data

How the results depend on the processing

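Of 156 named genes with a call, 0 changed direction under any alternative, and between 106 and 156 kept their call. Without the mean-variance trend in the moderation, 562 genes were higher and 343 lower (905 in all). With arrays centred on their medians 1302 were lower and 776 higher. Leaving out 1 array gave 455 to 679 higher, 330 to 561 lower and 858 to 1201 in all, and the lone array left in a group is then assumed to vary like the other groups. The cause of these shifts was not tested. The counts stayed within 1.5 times of the main ones in the other alternatives (the 4 arrays alone, the high BioB arrays, the array set as a covariate, quantile normalization, a filter on dim genes, the mean of all probe sets, log2 of the value plus 32, and GL against the mean of both SL groups). Against that mean 119 of the 156 named calls remained. The deviations of GL and SL LRC arrays of the same number from their group means correlated at 0.016. Over all groups this ran from -0.042 to 0.111. Between BL LRC and BL non-LRC it was 0.111, 0.054 and 0.064, and for arrays of different numbers in these 2 groups -0.061 to -0.002. The labels do not say whether the numbers mark pairs, and these values do not settle it. The main fit took no pairs. With the replicate number as a block 1045 genes were higher and 792 lower (1837 in all), and 155 of the named calls remained. With 2 arrays per group, of unknown sorting purity, signal over background limits dim genes, whose changes are bounds.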

Other observations

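Some of the best separated changes lay in genes on none of the lists, and they were chosen after their values were seen. Lgals1, a galectin of mesenchymal cells and leukocytes, read 160.5 and 285 in SL LRC and 8663 and 4756 in GL (4.91 ± 0.34, 30.0-fold, limma adjusted p = 5.49e-07). Actn1, which cross-links actin filaments, read 1156 and 1081 in SL LRC and 11067 and 12592 in GL (3.40 ± 0.24), and Tpm1, a tropomyosin, 3714 and 3028 against 17435 and 16718 (2.35 ± 0.23). Cald1 (4.97 ± 0.61) and Fscn1 (4.64 ± 0.42), 2 other actin-binding proteins, rose as well. The chemokine Cxcl12 rose from 176 and 120.0 to 3503 and 3189 (4.52 ± 0.32) and its receptor Cxcr4 from 192 and 118 to 2164 and 3449 (4.18 ± 0.44), while Ackr3, which scavenges that chemokine, fell. The Wnt receptors Fzd7, Fzd1 and Fzd5 rose by 2.00, 1.97 and 2.44, the R-spondin receptor Lgr4 by 2.22 and the transcription factor Runx1 by 2.42.

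Among decreases outside the lists, the semaphorin Sema3c read 3178 and 2466 in SL LRC and 308 and 254 in GL (-3.32 ± 0.22, limma adjusted p = 5.49e-07), and Sema3d fell by 3.65 ± 0.55. Tnxb, a tenascin, fell by 3.02 ± 0.23, the ligands Bmp4 and Wnt7b by 2.47 ± 0.41 and 1.87 ± 0.29, and Edaradd, the adaptor of the ectodysplasin receptor, by 2.85 ± 0.28. The homeobox genes Hoxc4, Hoxc5 and Hoxa7 fell by 2.66, 2.72 and 2.15, whereas Hoxc13 rose. The calls of the genes named here held in each fit without 1 of the 4 arrays, and their groups did not overlap. The part of the other cell types, whose markers differed between the same arrays, was not tested.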
